A study of Mus musculus with 24 samples.

Results

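The oxidative phosphorylation genes on the array were taken as all probe sets annotated to 1 gene whose symbol begins with Nduf, Sdha, Sdhb, Sdhc, Sdhd, Uqcr, Cyc1, Cox4 to Cox8 or Atp5. This rule, which uses names and no measured value, gave 102 probe sets of 74 genes, out of 12422 probe sets and 8251 genes. Each gene was read through its brightest probe set. The 74 genes comprise 29 of complex I, 4 of complex II, 8 of complex III, 15 of complex IV, 14 of complex V and 4 assembly factors (Ndufaf1, Ndufaf4, Sdhaf1 and Sdhaf2), so 70 encode subunits. Ndufa4, Uqcrfs1, Cox4i2, Atp5b, Atp5g3 and Atpif1 had no single-gene probe set here and were not analysed.

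Complexes I to IV of the mitochondrial inner membrane pass electrons from NADH and succinate to oxygen and, except for complex II, pump protons outward, and complex V, the ATP synthase, uses the return of those protons to make ATP. The subunits measured here are nuclear encoded, imported into the mitochondrion and assembled with subunits encoded by mitochondrial DNA. Lymphocytes draw on this pathway at rest and raise both it and glycolysis when activated.

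The 24 arrays cover 10 groups, from 5 leukocyte populations on each of 2 genetic backgrounds: NOD, and C57Bl/6 congenic for the H2g7 haplotype (B6g7). Infiltrate is all viable CD45+ cells of the pancreas of BDC2.5 mice, whose transgenic T cell receptor yields CD4+ T cells reactive to pancreatic islets. The labels call the resulting islet inflammation aggressive on B6g7 (3 arrays, at 25, 28 and 24 days of age) and benign on NOD (3 arrays, at 25 days). Viable CD4+ cells with high staining for the BDC2.5 clonotype came from the pancreas (CD45+ gate, 2 B6g7 arrays at 25 and 22 days and 3 NOD arrays at 24, 24 and 25 days) and from its draining lymph node (2 B6g7 arrays at 25 and 22 days and 3 NOD arrays at 24, 22 and 25 days). NK cells are splenic asialo-GM1+ CD45+ viable cells (2 arrays a background; the B6g7 mice carried no transgene and were 6 and 3 weeks old; the second NOD array is labelled with BDC2.5, and no age is given for NOD). Spleen is all viable CD45+ splenocytes (2 arrays a background, no age given, no transgene named). RNA was amplified in 2 rounds in every group except spleen, which had 1 round. The labels do not say that arrays of a group came from separate mice, so the p-values measure the spread between these arrays, which may be technical.

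Across the whole series, the 3′ minus 5′ signal of the Gapdh control, which grows as RNA or amplified product shortens, was 0.21 to 0.37 log2 units in spleen, 2.56 to 3.65 in infiltrate, 2.83 to 3.84 in lymph node T cells, 2.78 to 4.87 in pancreatic T cells and 4.32 to 5.27 in NK cells. Liver transcripts (Fabp1 above 5 on the log2 scale) were present in 6 arrays: B6g7 infiltrates 1 and 2 and array 1 of each of the 4 T cell groups. In the other 18 arrays Fabp1 read 3.22 to 4.36, which serves below as the level of an absent transcript. The 4.36 came from pancreatic NOD T cell array 2 alone, and the rest read at most 3.60. Values between 3.60 and 4.36 are thus called absent on the reading of 1 probe set in 1 array. Of the lineage markers, the mean of 6 measured NK genes was 7.38 to 8.21 in NK arrays and 4.55 to 5.30 in T cells. The mean of 6 T cell genes was 8.41 to 8.89 in T cell arrays, and the mean of 5 B cell genes was 9.94 to 10.12 in spleen. In these bulk samples, fewer cells of a type and less RNA per cell cannot be told apart.

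Some of the genes that differed most in the population comparisons, in either direction, are first shown by the DNA ahead of their RefSeq transcription start (GRCm38.p6), since promoters of this pathway are known for binding sites of NRF1 and of ETS family factors such as GABP. Of the 74 genes, 60 had a promoter in the table; Cyc1, among others, did not. Uqcrh, Cox7a2 and Ndufs3 were lower in NK cells, Cox6a1 was higher there, and Atp5l was higher in spleen. Each sequence is the 250 bases before the start, 5′ to 3′ on the gene's strand, which is the minus strand for all 5 genes. Capitals mark the NRF1 letters GCGCANGCG or the ETS letters CCGGAAG on either strand.
Uqcrh, chr4:116075071-116075320: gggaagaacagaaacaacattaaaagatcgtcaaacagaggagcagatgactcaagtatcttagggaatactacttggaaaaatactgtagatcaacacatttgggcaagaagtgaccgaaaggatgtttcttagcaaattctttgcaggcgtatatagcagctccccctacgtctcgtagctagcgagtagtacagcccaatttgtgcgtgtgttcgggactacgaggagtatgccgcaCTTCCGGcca
Cox7a2, chr9:79759854-79760103: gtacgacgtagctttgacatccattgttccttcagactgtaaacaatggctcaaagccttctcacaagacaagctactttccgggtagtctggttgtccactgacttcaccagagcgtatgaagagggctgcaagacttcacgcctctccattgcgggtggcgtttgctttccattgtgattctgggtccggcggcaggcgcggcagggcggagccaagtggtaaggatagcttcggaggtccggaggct
Ndufs3, chr2:90904722-90904971: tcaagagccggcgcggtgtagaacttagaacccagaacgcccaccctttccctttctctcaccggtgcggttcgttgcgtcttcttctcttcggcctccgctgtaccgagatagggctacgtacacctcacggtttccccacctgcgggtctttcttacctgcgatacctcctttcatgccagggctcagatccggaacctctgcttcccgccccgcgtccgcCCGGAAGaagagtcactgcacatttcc
Cox6a1, chr5:115348959-115349208: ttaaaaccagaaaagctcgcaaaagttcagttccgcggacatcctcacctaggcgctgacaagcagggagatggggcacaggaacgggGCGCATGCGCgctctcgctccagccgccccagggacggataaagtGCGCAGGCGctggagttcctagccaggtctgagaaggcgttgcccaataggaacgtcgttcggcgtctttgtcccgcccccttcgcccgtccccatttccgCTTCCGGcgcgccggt
Atp5l, chr9:44920743-44920992: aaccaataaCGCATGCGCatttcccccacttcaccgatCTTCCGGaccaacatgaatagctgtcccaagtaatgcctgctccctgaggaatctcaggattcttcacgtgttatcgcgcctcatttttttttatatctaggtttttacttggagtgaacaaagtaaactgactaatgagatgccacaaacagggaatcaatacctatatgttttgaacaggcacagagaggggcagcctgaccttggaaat

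Both strands of the whole 300-base window (250 before to 50 after the start) were searched. The NRF1 letters occurred in 15 of the 60 genes (25.0%), against 13.1% of 6512 other genes on the array with a promoter and 7.03% of all 27025 genes in the table. ETS letters occurred in 18 (30.0%), against 17.0% and 9.93%. The YY1 letters AAGATGGCG, which can overlap the end of the ETS letters, occurred in 5 (8.33%; Atp5j, Atp5j2, Ndufa9, Ndufc1 and Ndufs4), against 2.92% and 1.64%. Of the 5 genes shown, Cox6a1 and Atp5l had NRF1 and ETS letters, Uqcrh and Ndufs3 had ETS letters only and Cox7a2 had none of the 3 motifs. These are matches of letters in a window. Among the 5 shown, the ETS match occurred in Uqcrh and Ndufs3, which were lower in NK cells, and in Cox6a1, which was higher. Cox7a2, also lower, had none of the motifs, and neither did Uqcr10, which was higher there and is not shown. Whether the motifs go with direction was not tested.

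Among the 74 genes, group means spanned a median of 1.17 log2 units from the lowest to the highest of the 10 groups, against 0.72 over all 8251 genes. The span exceeded 1 in 43 genes and 2 in 12. It was widest for Atp5e, the epsilon subunit of the ATP synthase, with a mean of 5.45 in NOD NK cells and 9.10 in B6g7 spleen. Uqcrh, the hinge protein of complex III, ran from 6.13 in NOD NK cells to 9.46 in B6g7 lymph node T cells. Cox6c, a complex IV subunit, ran from 7.94 in NOD infiltrate to 10.95 in B6g7 NK cells. Of the catalytic core, Ndufs1 ran from 6.81 to 7.77, Ndufv1, which binds NADH, from 8.38 to 9.34, and Atp5a1, the alpha subunit of the ATP synthase, from 10.15 to 11.29. The mitochondrial acyl carrier protein Ndufab1 ran from 6.74 in NOD infiltrate to 7.66 in B6g7 NK cells. Levels on this array compare a gene between groups and not with other genes.

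**Figure D1:**
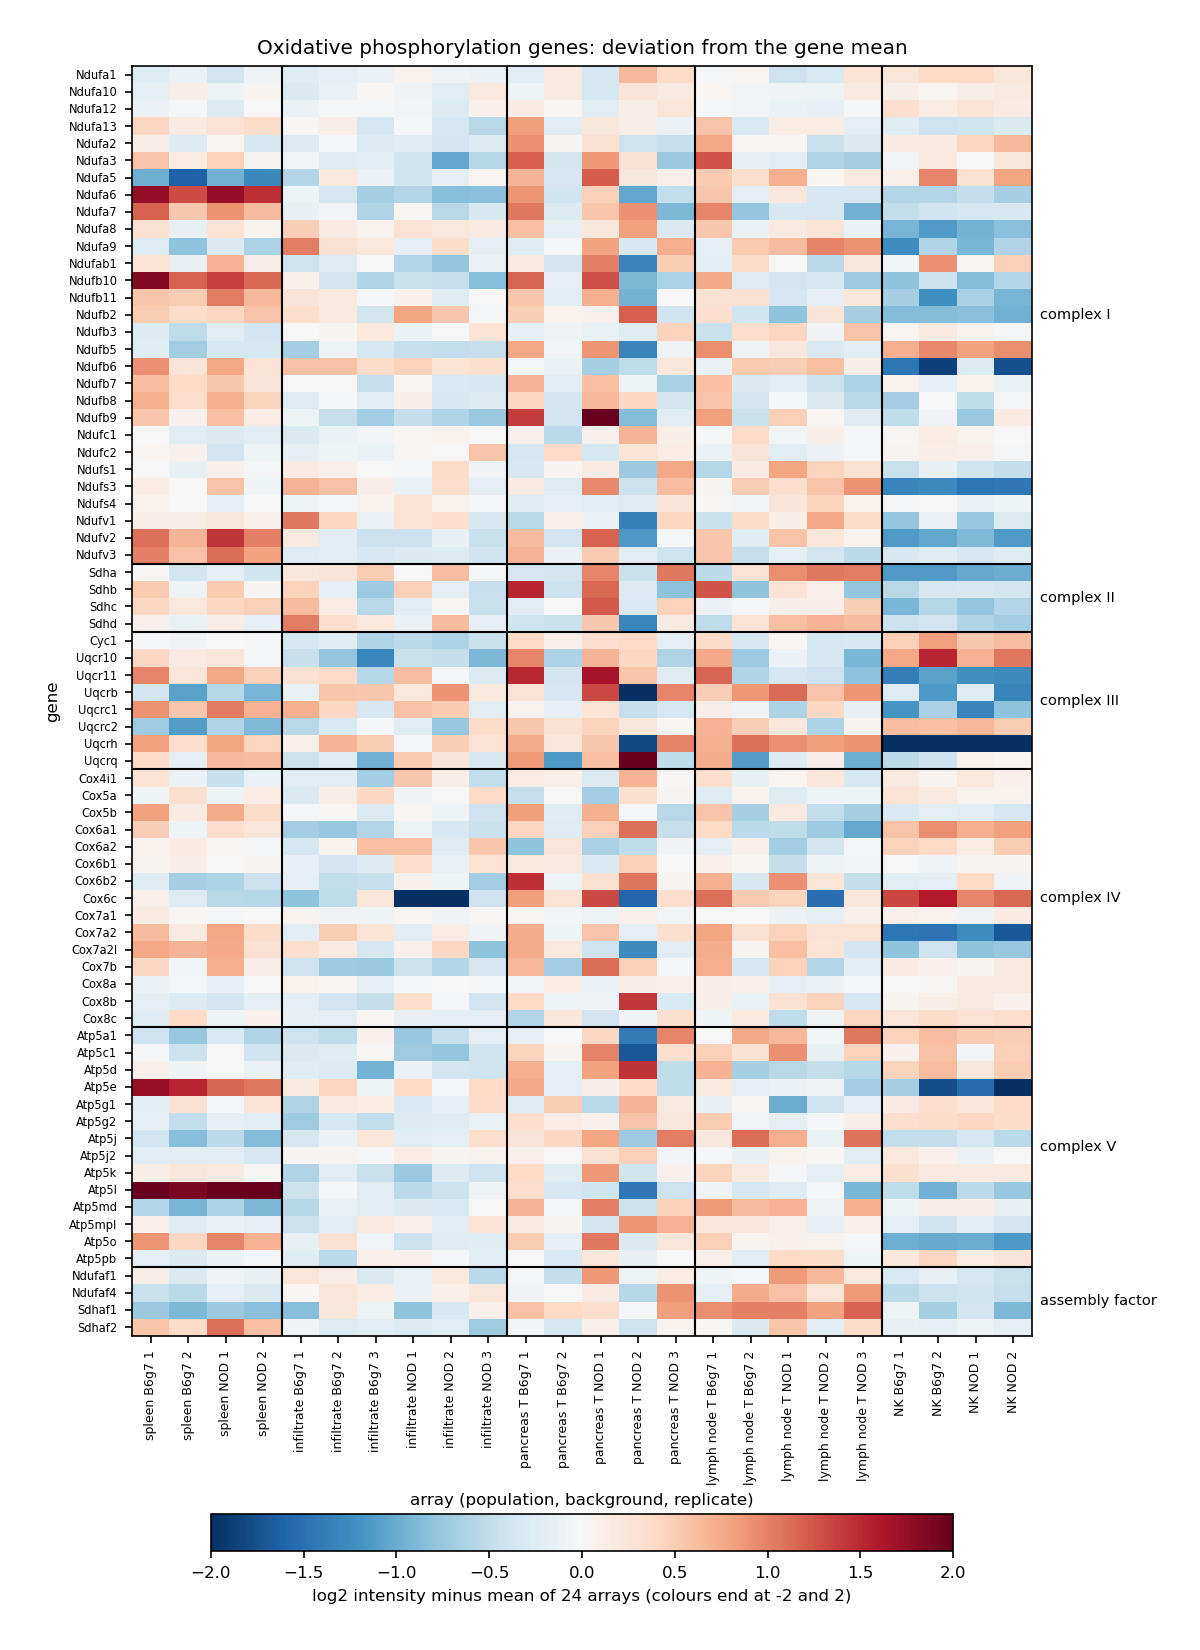
Each cell is the log2 intensity of 1 gene in 1 array minus that gene's mean over 24 arrays, with genes in rows by complex and arrays in columns by population, background and replicate. Atp5l is high in the 4 spleen arrays, and Uqcrh is low in the 4 NK arrays and in pancreatic NOD T cell array 2.

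Complex IV holds most of the tissue isoforms. Cox7a1, the heart and muscle form of subunit 7a, had group means of 3.05 to 3.20, at the level of an absent transcript in all 10 groups. Cox7a2, its widely expressed counterpart, ran from 6.54 in NOD NK cells to 8.58 in NOD spleen. Cox6a1, the widely expressed form of subunit 6a, ran from 9.16 in NOD lymph node T cells to 10.69 in NOD NK cells, and Cox6a2, the muscle form, from 5.31 to 6.14. Cox8b, another muscle form, read 6.57 to 7.26, while the mean of 8 muscle marker genes stayed at 4.44 to 4.82 in every array. The widely expressed subunits Cox5a (3.65 to 4.11) and Cox8a (3.31 to 3.59) also read under the 4.36 taken for an absent transcript in all groups. Cox5a lay above 3.60, the highest Fabp1 value outside the array that set this limit. For those probe sets a low value cannot be told from a failure to read the transcript. Of the other genes of the complex, Cox4i1 ran from 6.03 to 6.55, Cox5b from 7.55 to 8.42 and Cox6b1 from 5.58 to 6.06. Cox6c, given above, and Cox7a2l (7.58 to 9.07), Cox6b2 (5.49 to 6.70) and Cox7b (7.18 to 8.33) spanned more.

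The set also varied as a whole from array to array. The mean of the 74 genes was 6.99 ± 0.03 (SD, n = 4) in NK cells, 7.09 ± 0.05 (n = 6) in infiltrate, 7.30 ± 0.14 (n = 5) in lymph node T cells, 7.33 ± 0.26 (n = 5) in pancreatic T cells and 7.35 ± 0.12 (n = 4) in spleen. In T cells the 4 arrays with liver transcripts had means of 7.35 to 7.63, above the 7.07 to 7.27 of the 6 arrays without them. The 2 infiltrate arrays with liver transcripts read 7.13 and 7.17, and the 4 without 7.03 to 7.11, again without overlap. The mean over all genes ranged from 5.67 to 5.80 in these arrays. Liver transcripts therefore moved with the level of the set within both kinds of sample, and their part in it was not tested.

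**Figure D2:**
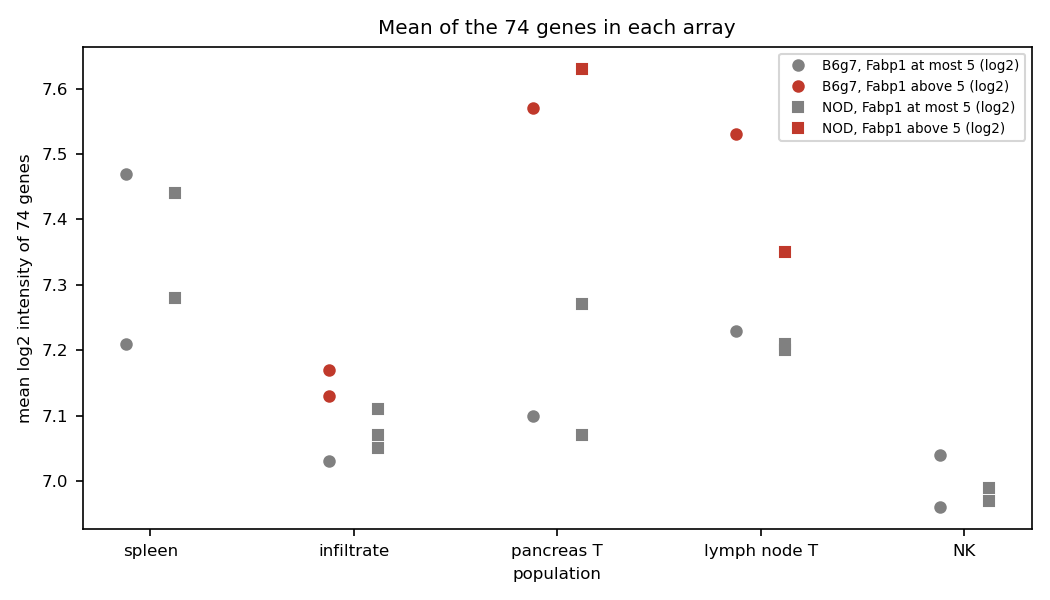
Points give the mean log2 intensity of the 74 genes in each array, by population, with circles for B6g7, squares for NOD and red for arrays with Fabp1 above 5. The red T cell points lie between 7.35 and 7.63, above all grey T cell points, and the NK points lie between 6.96 and 7.04.

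Within groups most genes of the set moved together. For the 71 genes above the level of an absent transcript in some group, the correlation of an array's deviation from its group mean with that of the mean of the other members had a median of 0.44 and was above 0 for 54 of them, against a median of -0.19 for 8177 other genes. It was highest for Ndufa6 (0.97), an accessory subunit of complex I, and reached 0.92 for Ndufv2, a core subunit, and 0.91 for Atp5o, which links the motor of the ATP synthase to its stalk. It was below 0 for Ndufc2 (-0.82), Atp5g1 (-0.80) and Ndufa1 (-0.76). These values describe 24 arrays that share the liver transcripts and the 3′ to 5′ differences given above, and genes are not independent replicates.

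NK cells were set against lymph node T cells with both backgrounds averaged. The T cells came from the pancreatic lymph node of BDC2.5 mice aged 22 to 25 days. The NK cells came from spleen, and the B6g7 mice carried no transgene and were 6 and 3 weeks old. The NOD NK mice have no age given, and only the second array is labelled with BDC2.5. Cell type, organ, transgene and age thus cannot be told apart in this comparison. In NK cells 17 of the 74 genes fell and 3 rose (limma, Benjamini-Hochberg adjusted p under 0.05 over all probe sets). These are 23.0% and 4.05% of the set, where 8.68% and 6.47% of all probe sets, or 10.2% and 7.03% of genes read through 1 probe set, passed in those directions. The median difference was -0.15 for the set and 0.03 for all genes. Without the arrays with liver transcripts the set's median was 0.01 and 20 genes still passed, 15 lower and 5 higher. Without NOD NK array 2 the number fell to 13.

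Complex III held the largest difference and moved both ways. Uqcrh read 6.47 and 5.87 in B6g7 NK cells and 6.49 and 5.77 in NOD NK cells, against 9.26 and 9.66 in B6g7 and 9.47, 9.39 and 9.45 in NOD lymph node T cells. No array of the NK cells came within 2 log2 units of those T cells. The difference was -3.30 ± 0.40 (SE), a 9.83-fold lower level (limma adjusted p = 2.12e-05). Uqcrc1, a core protein of the complex, was lower by 0.94 ± 0.26 (adjusted p = 0.0174). Cyc1, the cytochrome c1 subunit that hands electrons to cytochrome c, went the other way: it read 10.28 to 10.61 in NK cells and 9.45 to 10.16 in lymph node T cells, 1.63-fold higher (difference 0.70 ± 0.15, limma adjusted p = 0.00421). A second probe set for Cyc1 gave 0.30 (adjusted p = 0.444). Uqcr10, a small subunit, was 2.35-fold higher (1.23 ± 0.36, limma adjusted p = 0.0248), with overlapping arrays, and did not pass without B6g7 NK array 2, NOD NK array 2 or B6g7 lymph node array 2 (adjusted p up to 0.155).

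In complex I, 6 of 29 genes fell and none rose, where 10.2% and 7.03% of all genes read through 1 probe set did. Ndufs3, a core subunit of the arm that takes up electrons, read 6.49 and 6.54 in B6g7 and 6.37 and 6.38 in NOD NK cells, and 7.87 to 8.72 in lymph node T cells. The NK arrays thus agreed to within 0.2 units on a level 3.51-fold lower (-1.81 ± 0.24, limma adjusted p = 5.51e-05). Ndufb6, an accessory subunit of the membrane arm, was 3.12-fold lower on average (-1.64 ± 0.26, adjusted p = 3.53e-04), and here the NK arrays were uneven: NOD array 1 read 7.05 and the others 5.45 to 5.87. A second Ndufb6 probe set, with a mean of 2.93, gave -0.06. The remaining falls were Ndufa9 (-1.34), Ndufv2 (-1.27), Ndufa8 (-1.12) and Ndufb11 (-0.97). Ndufs1 and Ndufv1, core subunits, had differences of -0.53 and -0.68 and did not pass.

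All 4 complex II genes had lower means in NK cells, and Sdha and Sdhc passed. Sdha, the flavoprotein that oxidises succinate, read 3.84, 3.84, 3.94 and 3.98 in NK cells and 4.44 to 6.02 in lymph node T cells. The NK values lay under the 4.36 taken for an absent transcript but above 3.60. The Sdha difference of -1.51 ± 0.25 (limma adjusted p = 4.84e-04) may therefore understate the size. Sdhc, a membrane anchor, fell by 0.81 (adjusted p = 0.0401), while Sdhd, the other anchor, with -0.79, and the iron-sulfur subunit Sdhb, with -0.44, did not pass. The assembly factor Sdhaf1 was 2.81-fold lower (-1.49 ± 0.23, adjusted p = 2.43e-04).

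Complex IV had 2 falls and 1 rise among 15 genes, near the 10.2% and 7.03% of all genes read through 1 probe set. Of the 15 genes, 11 had differences above 0, and their median was 0.09. Cox7a2 read 6.57 and 6.54 in B6g7 and 6.76 and 6.32 in NOD NK cells, and 8.30 to 8.80 in lymph node T cells, a 3.75-fold lower level (-1.91 ± 0.21, limma adjusted p = 6.50e-06). Cox7a2l, a related protein that joins complexes III and IV into supercomplexes, was lower by 0.97 (adjusted p = 0.0240). Cox6a1 read 10.49 to 10.85 in NK cells and 8.89 to 10.31 in lymph node T cells and was 2.26-fold higher (1.18 ± 0.26, adjusted p = 0.00486). Complex V had 3 falls and 0 rises among 14 genes, and the median of the complex was -0.03. The falls were in Atp5e (-1.47), Atp5o (-1.18) and Atp5j (-1.08), which encode a subunit of the rotor and a pair of stalk proteins. Atp5a1 differed by 0.06 ± 0.35. Among the passing genes only Atp5e and Uqcr10 had overlapping arrays. These genes had passed a test on the same arrays, so the lack of overlap adds no separate support. Its share among all genes was not counted.

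**Figure D3:**
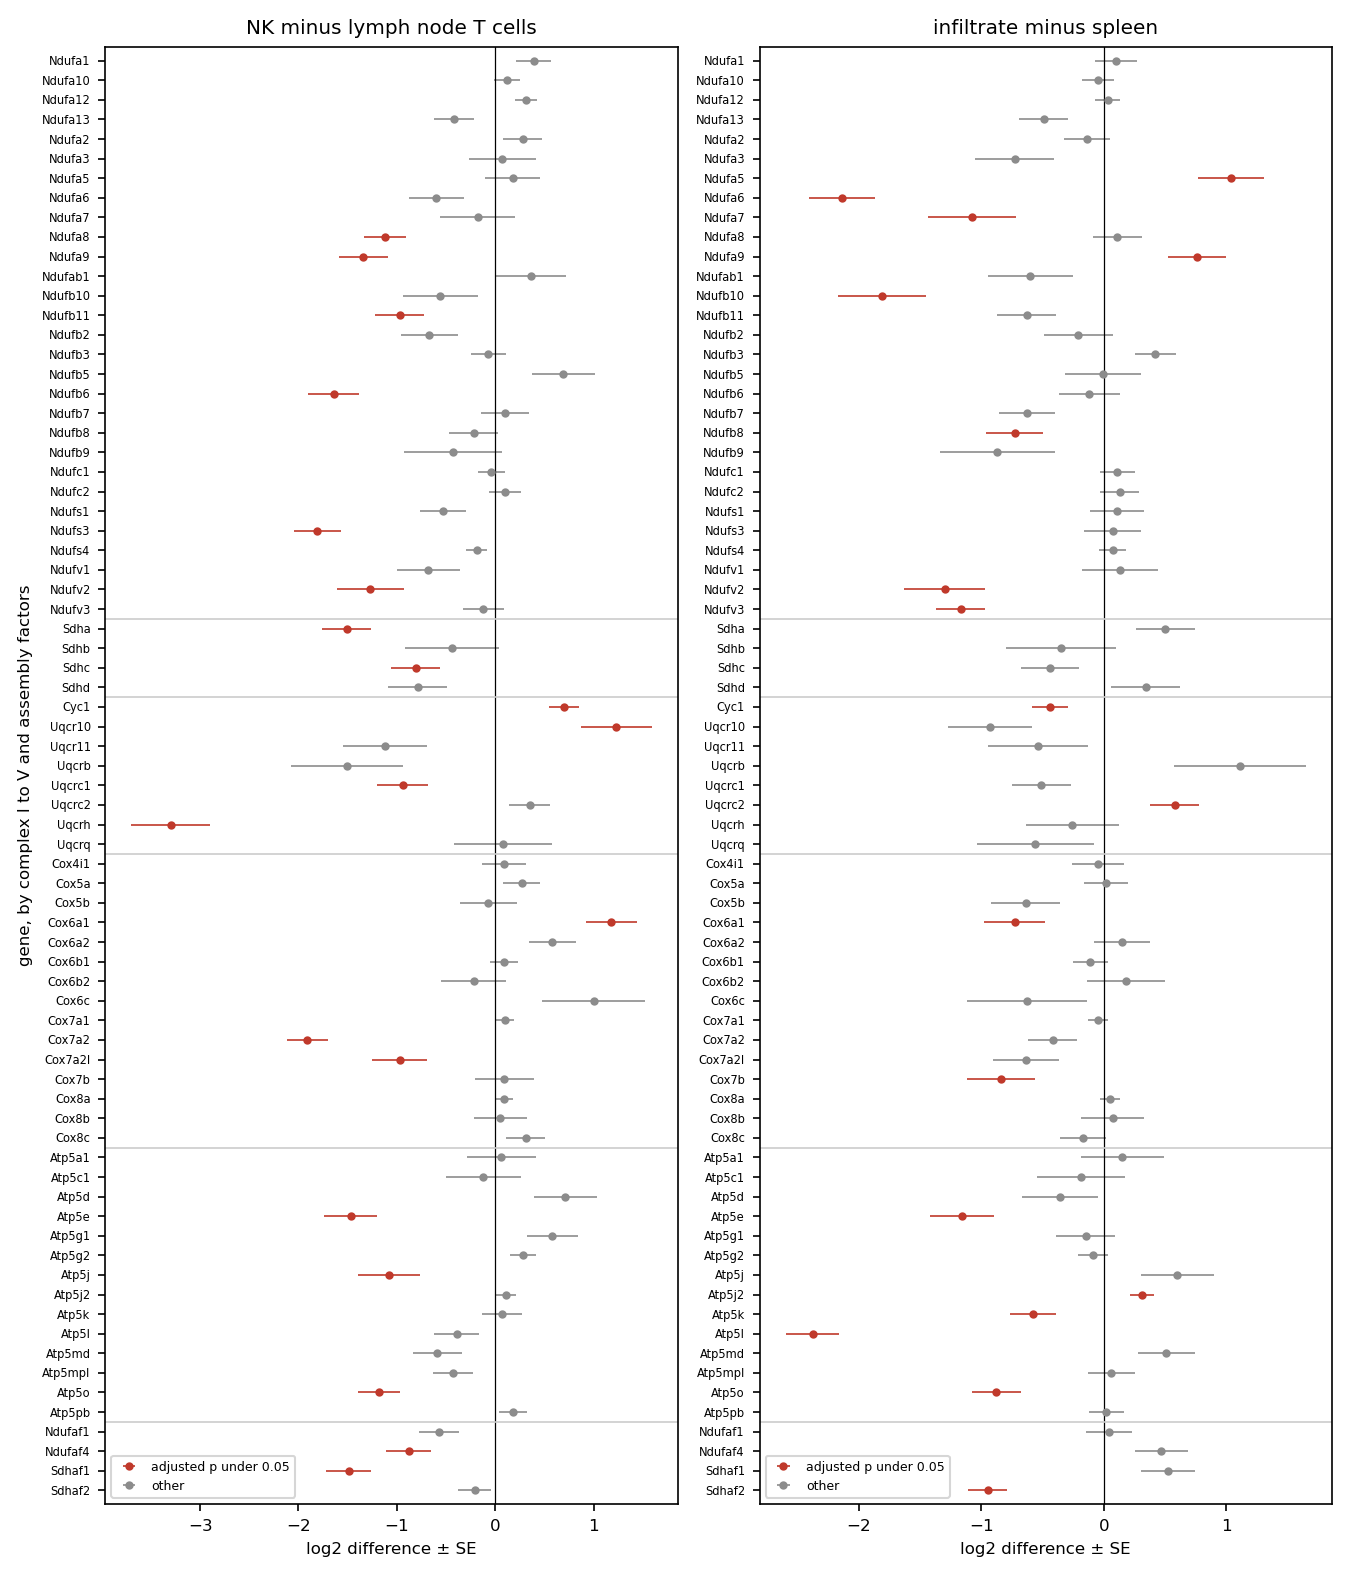
Points give the log2 difference of each of the 74 genes with its SE, for NK cells minus lymph node T cells (left) and infiltrate minus spleen (right), with genes that passed in red and grey lines between complexes I to V and the assembly factors. The left panel has 17 red points below 0 and 3 above, with Uqcrh lowest at -3.30; the right panel has 14 below and 4 above, with Atp5l lowest at -2.38.

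Upstream of the respiratory chain, 6 of 17 measured genes of the citric acid cycle and pyruvate oxidation fell in NK cells and none rose, where 10.2% and 7.03% of all genes read through 1 probe set did, and the list median was -0.43. They were Pdha1 (-1.71 ± 0.40, limma adjusted p = 0.00654), of the pyruvate dehydrogenase complex, Idh2 (-1.09), Ogdh (-1.04), Suclg1 (adjusted p = 0.0125), Idh3g (-0.70) and Cs (-0.67), the citrate synthase. Of 8 measured respiratory assembly genes outside the set, the copper chaperone Cox17 rose (1.12, adjusted p = 0.00298) and Coa3 fell (-0.60). Of 13 carriers and porins 1 fell, the channel Vdac3 (-1.17), and of 13 regulators of mitochondrial biogenesis none passed.

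Other measurements moved with this comparison. The Gapdh 3′ minus 5′ difference was 4.32 to 5.27 in the NK arrays and 2.83 to 3.84 in lymph node T cells. Of the other T cells, pancreatic NOD array 2 had 4.87, inside the NK range, with 4.88 for the Actb control (NK 5.29 to 5.52). In that array Uqcrh read 6.74, where the other 9 T cell arrays read 8.79 to 9.66, and Cox6a1 read 11.01, where they read 8.89 to 10.39. For 18 of the 20 genes that passed it lay on the NK side of the median of the other T cell arrays, and for 14 it lay beyond all 9 of them on that side. Of all genes that passed in NK cells against lymph node T cells, 78.6% and 43.2% did so. Ndufa8 and Atp5e were the exceptions, at 7.52 and 7.85, above those medians. The part of RNA or amplification quality in the NK result was not tested.

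**Figure D4:**
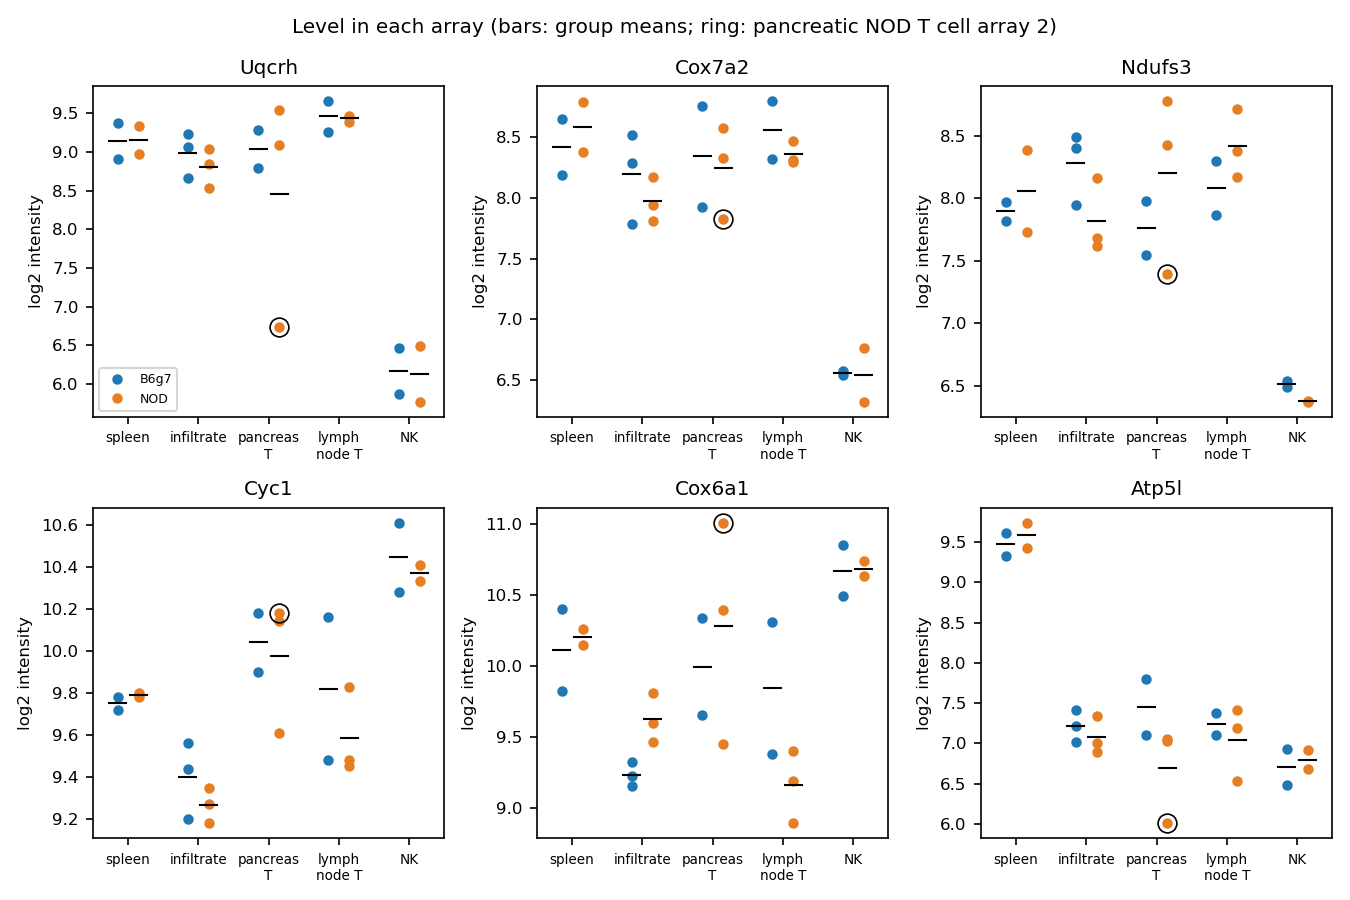
Points give the log2 intensity of 6 genes in each array, by population (B6g7 blue, NOD orange), with bars at the group means and a ring around pancreatic NOD T cell array 2. Uqcrh, Cox7a2 and Ndufs3 are low in all 4 NK arrays, Cyc1 and Cox6a1 are high there, and Atp5l stands at 9.33 to 9.74 in spleen and at 7.80 or less elsewhere.

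Transcripts of other leukocytes also differed between those groups. The means of 7 granulocyte genes were 5.44 to 9.94 in NK arrays and 4.70 to 5.05 in lymph node T cells, those of 6 macrophage genes 6.65 to 7.75 and 4.76 to 4.98, those of 6 red cell genes 5.82 to 7.70 and 5.14 to 5.59, and those of 5 B cell genes 7.19 to 7.96 and 5.21 to 5.56. T cell genes averaged 5.88 to 7.65 in the NK arrays. NOD NK array 1 had the lowest granulocyte signal (S100a8 at 5.03, against 9.04 to 12.58 in the other 3), and it read 6.49 for Uqcrh, 6.76 for Cox7a2 and 6.37 for Ndufs3, at or near the other NK arrays, and 7.05 for Ndufb6, above them. The part of the other cell types was not tested.

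Set against all 20 other arrays, 10 of the 74 genes (13.5%) lay lower in every NK array, where 2.75% of all genes did, and 1 (1.35%) lay higher, where 1.95% did. The 10 were Uqcrh, Uqcr11, Uqcrc1, Cox7a2, Ndufs3, Ndufa8, Ndufb2, Sdha, Sdhc and Atp5o, and the other was Cyc1. For Uqcrh the highest NK value was 6.49 and the lowest elsewhere the 6.74 of pancreatic NOD array 2. The gap was wider for Cox7a2, with 6.76 as the highest NK value and 7.79 as the lowest elsewhere, and for Ndufs3 6.54 and 7.39. This count rests on the same NK arrays as the test above and has no test of its own.

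Infiltrate was set against splenic leukocytes, which the labels name as its reference. The set split here too: 14 genes fell (18.9%) and 4 rose (5.41%), where 10.6% and 9.78% of all probe sets, or 10.3% and 10.1% of genes read through 1 probe set, did, and the median difference was -0.13, against 0.03 for all genes. The infiltrates had 2 rounds of amplification and the spleen 1, so tissue and amplification cannot be told apart. The Gapdh 3′ minus 5′ difference was 2.56 to 3.65 in infiltrate and 0.21 to 0.37 in spleen. B cell genes averaged 8.18 to 8.70 in infiltrate and 9.94 to 10.12 in spleen, macrophage genes 6.94 to 8.30 and 6.00 to 6.35, T cell genes 7.37 to 7.90 and 7.80 to 8.56, and NK genes 5.47 to 7.02 and 5.32 to 5.92. The part of cell makeup in the result was not tested. Leaving out single arrays gave 8 to 13 passing genes, with 8 without B6g7 or NOD spleen array 2, 9 without NOD spleen array 1, 10 without B6g7 spleen array 1 or NOD infiltrate array 3, and 11 without B6g7 infiltrate array 3 or NOD infiltrate array 2. Without the arrays with liver transcripts it was 23.

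Atp5l, subunit g of the ATP synthase, gave the largest fall. It read 9.61 and 9.33 in B6g7 and 9.74 and 9.43 in NOD spleen, against 7.02, 7.42 and 7.22 in B6g7 and 6.90, 7.01 and 7.34 in NOD infiltrate. The groups were far apart, with a 5.20-fold lower level in infiltrate (-2.38 ± 0.22, limma adjusted p = 6.20e-07). A dimmer family probe set for Atp5l, with a mean of 4.26, showed 0.04. Ndufa6 read 7.41 to 7.86 in spleen and 5.25 to 6.00 in infiltrate and was 4.40-fold lower (-2.14 ± 0.27, adjusted p = 2.50e-05). Ndufb10 was 3.51-fold lower (-1.81 ± 0.36, adjusted p = 0.00162; a second probe set, with a mean of 3.46, gave 0.07) and Ndufv3 2.25-fold lower (-1.17 ± 0.20, adjusted p = 5.34e-04). Ndufv2 was lower by 1.30 ± 0.33 (adjusted p = 0.00866), but its other probe set rose by 0.74 (adjusted p = 0.00381), so its direction depends on the probe set. Smaller falls were seen in Atp5e (-1.16), Ndufa7 (-1.08), Sdhaf2 (-0.95), Atp5o (-0.88), Cox7b (-0.84), Ndufb8 (-0.73), Cox6a1 (-0.73), Atp5k (-0.58) and Cyc1 (-0.44).

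The rises were in Ndufa5, an accessory subunit of complex I (1.04 ± 0.27, limma adjusted p = 0.0100), Ndufa9 (0.76), Uqcrc2, a core protein of complex III (0.58), and Atp5j2 (0.31). In infiltrate and spleen the Atp5j2 means lay under the 4.36 taken for an absent transcript, but above 3.60. Ndufa5 read 8.10 to 8.90 in infiltrate and 7.08 to 7.73 in spleen, without overlap. All 4 rises were lost on leaving out B6g7 spleen array 2 or NOD spleen array 2. Of 17 measured citric acid cycle genes, 2 rose (Sucla2 by 1.55, Dlat by 0.87) and 2 fell (Idh3g by 1.69, Mdh2 by 1.46), near the 10.1% and 10.3% of all genes read through 1 probe set. Of 13 carriers and porins, 2 rose, Cycs, cytochrome c itself, by 1.01 and Gpd2 by 1.02, and none fell.

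The 20 arrays amplified in 2 rounds can be set against the 4 spleen arrays directly. Atp5l, Atp5e and Ndufa6 (4.05% of the set) were higher in all 4 spleen arrays than in any other array, where 4.23% of all genes were. Atp5md and Ndufa5 (2.70%) were lower, where 2.40% were. The set's shares were thus near those of all genes. Atp5l read 9.33 or more in spleen and 6.01 to 7.80 in the T cell, NK and infiltrate arrays alike.

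Infiltrate was also compared with the T cells sorted from the same organ. No gene of the set was higher in infiltrate and 3 (4.05%) were lower, where 5.72% and 1.72% of all probe sets, or 6.58% and 1.71% of genes read through 1 probe set, passed in those directions. Atp5g2, a form of the c subunit of the ATP synthase, read 6.97 to 7.55 in infiltrate and 7.77 to 8.24 in pancreatic T cells, without overlap (-0.63 ± 0.12, limma adjusted p = 0.00240); a dimmer probe set for it gave -0.09 (adjusted p = 0.719). Cyc1 read 9.18 to 9.56 and 9.61 to 10.18, also without overlap (-0.67 ± 0.14, adjusted p = 0.00465), while a second probe set for it gave 0.18 (adjusted p = 0.668). Sdhaf1 differed by -0.73 ± 0.21 (adjusted p = 0.0408), with overlapping arrays, and passed in 3 of the 11 fits that left out 1 array. Cells other than T cells are part of the infiltrate and not of the sorted T cells: B cell genes averaged 8.18 to 8.70 in infiltrate and 5.37 to 5.60 in pancreatic T cells, macrophage genes 6.94 to 8.30 and 4.92 to 5.95, granulocyte genes 5.96 to 6.75 and 4.88 to 5.31, and T cell genes 7.37 to 7.90 and 8.41 to 8.89. Their part in the result was not tested. The set's median was -0.25, against -0.02 for all genes, and -0.08 without the arrays with liver transcripts, where 2 genes passed. The number that passed was 8, all lower, without NOD pancreatic array 2 and 10, of which 1 was higher, without NOD pancreatic array 3. Of all probe sets 1132 and 1520 passed in these fits, against 925 in the main fit, so the rise was not confined to the set. Without B6g7 pancreatic array 2 the set's median was -0.30, against 0.03 for all probe sets. Of 13 measured regulators of mitochondrial biogenesis 2 were lower in infiltrate and none higher, where 1.71% and 6.58% of all genes were: Yy1 (-0.78) and Pprc1 (-0.74), which lay at the level of an absent transcript in infiltrate. Of 17 citric acid cycle genes 1 was lower, Pcx (-0.66), and none higher. None of 8 assembly genes or 13 carriers and porins passed.

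The backgrounds were compared within each population as B6g7 minus NOD. In infiltrate and in both T cell populations, from BDC2.5 mice, this sets aggressive against benign disease, and disease form and genetic background cannot be told apart. In NK cells and spleen it compares backgrounds, with no transgene in the B6g7 NK mice and none named for spleen. The second NOD NK array is labelled with BDC2.5, so in NK cells a transgene may differ along with the background. The average mixes both kinds of comparison. None of the 74 genes passed in any of the 5 populations or in their average (limma, all probe sets adjusted). In infiltrate 0.274% of all probe sets passed, in spleen 0.0725%, in pancreatic T cells 0.145%, in lymph node T cells 0.129%, in NK cells 0.0483% and in the average 1.17%. At an unadjusted p under 0.05 the numbers of set genes were 1, 0, 5, 6, 0 and 4 of 74 in the same order, where 4.19%, 1.25%, 6.44%, 6.96%, 1.26% and 6.43% of all probe sets had such a p. The median differences were 0.02, -0.02, 0.00, 0.17, 0.02 and 0.02, against -0.01, 0.01, -0.01, 0.04, -0.00 and -0.00 for all genes. The median SE of a gene was 0.30 in infiltrate, 0.37 in spleen and NK cells and 0.34 in both T cell groups. In the average it was 0.15. Set differences of 1.19 in infiltrate (Cox6c), -1.13 for lymph node T cells (Sdha) and 1.12 for those of the pancreas (Cox7a2l) did not pass. Differences of this size, and smaller ones, could thus be missed within a population. None of the citric acid cycle, assembly, carrier or biogenesis genes passed in these 6 comparisons.

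**Figure D5:**
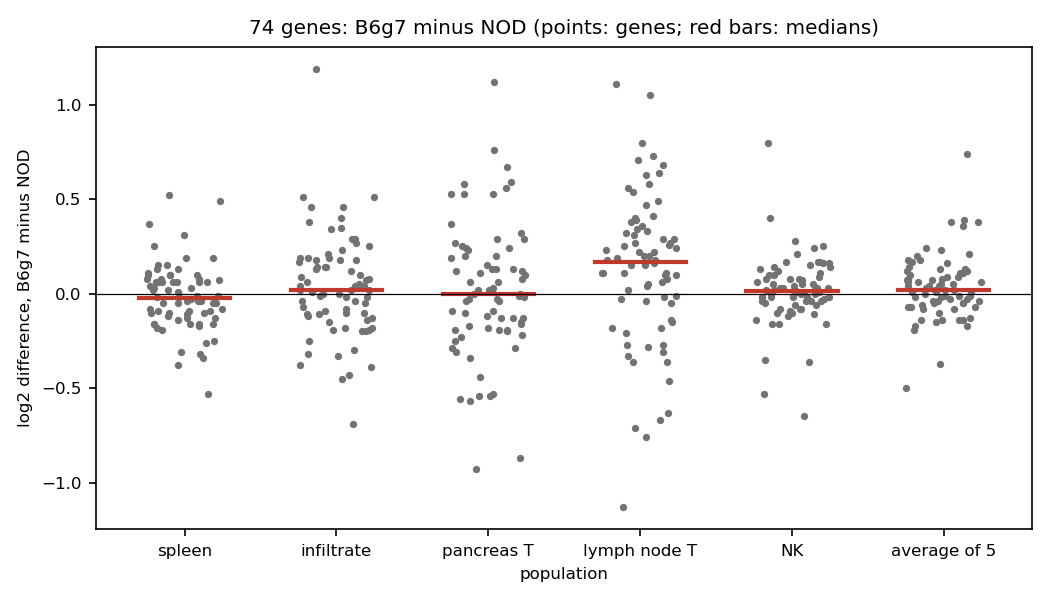
Each point is the log2 difference B6g7 minus NOD of 1 of the 74 genes, by population and for the average of the 5, with red bars at the medians and a small sideways spread for legibility. Medians lie at -0.02 to 0.02 except for lymph node T cells at 0.17.

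In infiltrate the smallest p belonged to Cox6b1, a complex IV subunit. It read 5.69, 5.47 and 5.58 in B6g7 and 6.21, 5.72 and 6.15 in NOD, without overlap (-0.45 ± 0.17, limma adjusted p = 0.829). Atp5g2 differed by -0.30 ± 0.16 (adjusted p = 0.999). Cox6c showed the largest difference, 1.19 ± 0.62 (adjusted p = 0.999): it read 8.69, 8.98 and 9.73 in B6g7 and 7.43, 7.31 and 9.08 in NOD, where array 3 lay within the B6g7 range. Dimmer probe sets for Cox6c differed by -0.37 and 0.11.

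In lymph node T cells Sdha had the lowest p of the set, and in pancreatic T cells the third lowest. Lymph node T cells read 4.44 and 5.25 in B6g7 and 5.90, 6.02 and 6.00 in NOD (-1.13 ± 0.34, limma adjusted p = 0.371), and pancreatic T cells 4.64 and 4.61 in B6g7 and 5.94, 4.52 and 6.02 in NOD (-0.87 ± 0.34, adjusted p = 0.594). Sdha was lower in B6g7 in the lymph node without overlap, but in the pancreas NOD array 2 lay below both B6g7 arrays. Its average over the 5 populations was -0.37 ± 0.15 (adjusted p = 0.604), and in infiltrate the groups overlapped at 5.20 to 5.47 and 4.94 to 5.59. Cox7a2l in pancreatic T cells read 9.10 and 8.57 in B6g7 and 7.94, 7.08 and 8.12 in NOD (1.12 ± 0.38, adjusted p = 0.45), and Ndufc1 differed by -0.53 (adjusted p = 0.526). In lymph node T cells Uqcrc2 (0.71) and Ndufa2 (0.63) followed Sdha in p. Without NOD pancreatic array 2, Sdha was the 1 gene of the set that passed in pancreatic T cells (-1.36, limma adjusted p = 0.0239) and the 1 that passed in the average (-0.47, adjusted p = 0.0241). The lymph node median of 0.17 was 0.05 with the liver marker mean as a covariate. The smallest p values in spleen belonged to Sdhaf2 (-0.38), Ndufc2 (0.31) and Atp5e (0.52), and in NK cells to Atp5e (0.80), Ndufb6 (-0.65) and Atp5j2 (0.21), none of which passed. For Ndufb6 in NK cells the sign rested on NOD array 1, without which the difference was 0.10.

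T cells of the pancreas were compared with those of its lymph node within each background. No gene of the set passed in NOD, where 0.0161% of all probe sets did, and 10 of 74 had an unadjusted p under 0.05, where 18.2% of all probe sets did. Cox6a1 came nearest: it read 10.39, 11.01 and 9.45 in the pancreas and 9.40, 9.19 and 8.89 in the lymph node, each pancreatic array above all lymph node arrays (1.12 ± 0.31, limma adjusted p = 0.114). Atp5d, the delta subunit of the ATP synthase, read 8.04, 8.68 and 6.73 against 6.68, 6.76 and 6.67 (1.11 ± 0.39, adjusted p = 0.153), with array 3 among the lymph node values. That probe set reads a family of similar sequences. The other family probe sets for Atp5d gave 0.85 and 1.11, and those without the family suffix gave 0.03 and 0.13. Ndufs4 differed by -0.34 (adjusted p = 0.205). Without NOD pancreatic array 3, 9 genes of the set and 1849 probe sets passed, among them Cox6a1 (1.54, limma adjusted p = 0.00237), Atp5d (1.66, adjusted p = 0.00397) and Ndufs4 (-0.50, adjusted p = 0.0151). That fit keeps pancreatic array 1, with liver transcripts (Fabp1 at 12.08), and array 2, with a Gapdh 3′ minus 5′ difference of 4.87. Array 3 read 3.53 for Fabp1 and 2.78 for the Gapdh difference. The part of these array differences was not tested. The set's median was 0.14, -0.02 with the liver covariate and -0.10 without NOD pancreatic array 1. In B6g7 none passed among the set or all probe sets, and no set gene had an unadjusted p under 0.05, where 0.652% of all probe sets did. Ndufc1 (-0.41), Sdhaf1 (-0.48) and Atp5md (-0.41) had the smallest p. The difference of the site effects between backgrounds passed for no gene of the set and no probe set, with 1 set gene and 2.83% of all probe sets at an unadjusted p under 0.05. That gene was Ndufc1 (-0.69 ± 0.27, limma adjusted p = 0.998), followed by Cox6a1 (-0.97) and Cox7a2l (0.89).

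The probe sets themselves set further limits. Of the representative probe sets, 10 carry the suffix for families of similar sequence and may also read related genes or pseudogenes, among them Cox6a1, Cox6c, Uqcrb, Uqcrc2, Atp5d, Atp5g2, Atp5md and Sdhaf1. Another 9 carry a different design suffix (r, i, s or g), among them Atp5e (i), Cox6b1 and Cox8b (r) and Ndufa5 (s). Uqcrh, Cox7a2, Ndufs3, Sdha, Cyc1, Atp5l and Ndufa6 carry none of these suffixes. A further 10 probe sets with a symbol of the rule were annotated to several genes and left out.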

How the data were processed

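The authors deposited 1 table of probe set intensity on a linear scale for 24 mouse oligonucleotide arrays. The submitters' processing notes name RMA for 11 arrays and no method for the other 13. RMA is named for all arrays of B6g7 infiltrate, NOD pancreatic T cells, NOD spleen and B6g7 NK cells, and for NOD NK array 2. It is named for no array of NOD infiltrate, B6g7 pancreatic T cells, B6g7 spleen or lymph node T cells. In infiltrate, spleen and pancreatic T cells the naming thus follows background, and in NOD T cells it follows site. The smallest intensity was 5.7 and array medians were 35.1 to 39.1, and log2 needed no pseudocount. The number of arrays limits the precision.

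Of 12488 probe sets, 66 controls were left out. Gene names come from GEO's platform table, brought up to date by Entrez identifier with RefSeq (GRCm38.p6): 10833 had 1 gene, 396 several and 1193 none. Means of the 10 groups were fitted in limma 3.58.1 (R 4.3.3, lmFit and eBayes, 14 residual degrees of freedom), after a check on simulated data. Each of 12 comparisons was adjusted by Benjamini-Hochberg over 12422 probe sets, and an adjusted p under 0.05 passed. All tests are two-sided, and folds are antilogs of log2 differences.

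The members, lists and motifs were chosen with earlier results of these data known; 2 motifs were shortened by 1 letter after a first search. Named were, in each comparison, up to 5 rises and 5 falls that passed, or the 3 smallest p values where fewer than 3 passed, plus core subunits and tissue isoforms whatever their values. Others are named as examples or to complete a count, after their values were seen. Deviations of same-numbered pancreatic and lymph node NOD T cell arrays correlated at 0.34, 0.36 and 0.29. Same-numbered arrays of different backgrounds, which cannot be the same mice, correlated at -0.04 to 0.65, so these values do not show pairs. The replicate block, an alternative below, groups arrays by number only. The labels do not state a pairing. Of these NOD arrays the ages of number 2 differ (24 and 22 days), while those of numbers 1 and 3 agree. Serial codes of numbers 1 and 3 lie close together. The same holds for same-numbered B6g7 arrays of the 2 sites, which share their ages and correlated at 0.79. Whether any of these arrays are pairs cannot be told.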

Additional observations from a re-analysis of the deposited data

How the results depend on the processing

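Alternatives were quantile normalization, centring on array medians, leaving out the 40% dimmest probe sets, array weights, a liver marker covariate, averaging the probe sets of a gene, fitting only the compared groups, the replicate number as a block, serial code runs as a block (infiltrates) and leaving out each array; leaving out the arrays with liver transcripts was chosen after seeing the data. Where leaving out an array left a group with 1, that array was assumed to vary like the rest. For the 20 named results that passed, 323 of 374 alternative values passed with the same sign, 51 kept the sign without passing and 0 reversed. Counts of passing set genes that moved by more than 1.5 times were these. With array weights, 1 gene passed in the infiltrate background comparison (Cox6b1) and 1 in the average of populations (Sdha; main value 0 for both), 36 in infiltrate minus spleen (main 18) and 38 in NK minus lymph node T cells (main 20). Infiltrate minus spleen gave 29 with the liver covariate and 31 with only the compared groups fitted. With the replicate block, infiltrate minus pancreatic T cells gave 5 (main 3) and infiltrate minus spleen 10. The NOD pancreas minus lymph node comparison gave 0 with it, with 3 probe sets in all. The block moved no other count of set genes by more than 1.5 times. Same-numbered B6g7 pancreatic and lymph node T cell arrays share their age (25 and 22 days) and correlate at 0.79, but with 2 arrays a group this is a single value, and the block gave 0 set genes there. The labels state no pairing for any same-numbered arrays. Over all probe sets, array weights gave 302 in the infiltrate background comparison (main 34), 269 in the average (145), 67 in NK cells (6), 66 in spleen (9), 0 in T cells of the pancreas (18), 0 in NOD pancreas minus lymph node (2), 5505 in infiltrate minus spleen (2527) and 3442 in NK minus lymph node T cells (1882). Without the arrays with liver transcripts the background comparisons gave 6 in infiltrate, 0 in pancreatic and 0 in lymph node T cells (main 16) and 92 in the average, and with only the compared groups 50 in spleen, 0 in pancreatic T cells, 2 in lymph node T cells and 0 in NK cells. Without the dimmest probe sets, spleen gave 2 and NK cells 1; the liver covariate gave 12 in NK cells, and averaged probe sets 10 in lymph node T cells. Infiltrate minus pancreatic T cells gave 416 probe sets with only the compared groups and 370 without the arrays with liver transcripts (main 925), and NOD pancreas minus lymph node 1849 without pancreatic array 3 (main 2), 4 with median centring, 1 without the dimmest probe sets and 0 with the liver covariate, only the compared groups or no arrays with liver transcripts. Leaving out single arrays gave, in set genes, 0 to 1 in the pancreatic T cell background comparison, 0 to 1 in the average, 0 to 9 in NOD pancreas minus lymph node, 2 to 10 in infiltrate minus pancreatic T cells, 8 to 13 in infiltrate minus spleen and 13 to 20 in NK minus lymph node T cells. The difference of Ndufb6 in the NK background comparison ran from -1.39 to 0.10 on leaving out single arrays, reversing without NOD NK array 1. Ndufv2 in infiltrate minus spleen did not pass with its probe sets averaged (adjusted p = 0.393), and Cyc1 in infiltrate minus pancreatic T cells did not pass with array weights or averaged probe sets (adjusted p up to 0.137). The causes were not tested.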
